A study of Mus musculus with 10 samples.

Results

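The matrix metalloproteases (MMPs), a disintegrin and metalloproteases (ADAMs) and tissue inhibitors of metalloproteases (TIMPs) were followed across 3 kinds of allergic effector cells grown from mouse bone marrow (BM). The members were 10 genes, *Mmp8*, *Mmp9*, *Mmp12*, *Mmp14*, *Mmp19*, *Mmp25*, *Adam8*, *Adam17*, *Timp1* and *Timp2*, of 60 measured MMP, MMP inhibitor, ADAM and ADAMTS genes and 19937 named genes on the array. They were chosen by name, each has 1 probe set that carries only its symbol, and all 10 were found. The RNA was hybridized to 10 Affymetrix arrays (Mouse Gene 1.0 ST), 1 for each condition, and the values are log2 signals. All cells came from mice of strain C57BL6/N, either wild type (B6) or Slpi-/-, which lack the serine protease inhibitor SLPI. BM-derived basophils (BMBs) were grown in IL-3, isolated as c-kit- DX5+ cells, and either left unstimulated or loaded with anti-TNP-IgE for 1 h before the antigen TNP-OVA was added for 12 h. The latter cells are called BMBs with IgE. Mast cells were grown in IL-3 for longer and were not stimulated. BM-derived eosinophils (BMEos) were grown in stem cell factor and Flt3 ligand and then in IL-5, and were left unstimulated or given lipopolysaccharide (LPS) for 3 h. How old the mice were, and how many mice or cultures made up each array, is not given in the sources used here.

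MMPs are zinc-dependent enzymes that are made as inactive proenzymes and cut extracellular matrix and many soluble proteins. Most are secreted, while some, such as the products of *Mmp14* and *Mmp25*, are held at the cell surface. ADAMs are membrane proteins, several of which release the outer part of other membrane proteins, and ADAM17 is best known for releasing TNF. TIMPs bind the active site of MMPs and of some ADAMs, so the balance of enzyme and inhibitor sets how much proteolysis takes place around a leukocyte that leaves the blood. An mRNA signal gives neither proenzyme activation nor inhibitor binding.

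*Mmp8* and *Mmp12* lie in a row of 10 measured Mmp genes on chromosome 9, in the order *Mmp13*, *Mmp12*, *Mmp1b*, *Mmp3*, *Mmp1a*, *Mmp10*, *Mmp8*, *Mmp27*, *Mmp20* and *Mmp7*. Within this row *Mmp12*, *Mmp13* and *Mmp27* were the genes called for both stimuli, and the DNA before their start sites is therefore shown. Each sequence is the 250 bases before a RefSeq start site on the plus strand of GRCm38.p6, at chr9:7347124-7347373 for *Mmp12*, chr9:7272264-7272513 for *Mmp13* and chr9:7571146-7571395 for *Mmp27*. Capitals mark matches to TGANTCA, the core letters bound by AP-1 (Fos and Jun dimers), or to AGATAA, the letters bound by GATA factors, on either strand.
Mmp12: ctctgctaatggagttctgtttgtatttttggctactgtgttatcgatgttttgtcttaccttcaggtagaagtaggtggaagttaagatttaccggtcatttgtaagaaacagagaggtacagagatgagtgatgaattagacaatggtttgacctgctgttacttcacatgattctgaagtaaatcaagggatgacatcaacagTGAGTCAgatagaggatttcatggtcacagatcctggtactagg
Mmp13: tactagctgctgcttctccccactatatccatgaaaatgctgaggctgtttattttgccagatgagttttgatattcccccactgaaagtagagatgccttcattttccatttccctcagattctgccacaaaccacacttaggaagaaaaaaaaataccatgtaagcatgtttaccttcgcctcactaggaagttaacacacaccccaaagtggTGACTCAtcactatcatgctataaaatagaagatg
Mmp27: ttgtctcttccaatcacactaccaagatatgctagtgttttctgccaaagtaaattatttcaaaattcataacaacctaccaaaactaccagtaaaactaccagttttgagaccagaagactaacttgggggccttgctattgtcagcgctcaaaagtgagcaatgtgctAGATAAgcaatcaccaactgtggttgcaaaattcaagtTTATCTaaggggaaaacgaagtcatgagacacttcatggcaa
Counting the base before the start as -1, the AP-1 letters began at -44 for *Mmp12* (TGAGTCA) and at -35 for *Mmp13* (TGACTCA). *Mmp12* has another RefSeq start, at which the window of 300 bases around the start held no AP-1 letters. Of 32851 RefSeq promoter windows of 300 bases, 7.81% held TGANTCA. The *Mmp27* window held the GATA letters on both strands, at -80 and -42, and 11.2% of windows held them on 1 strand or the other. Another pattern, AGGAAG, which ETS factors of the PEA3 group bind, was in 35.4% of windows and was found before *Mmp8*, *Mmp13*, *Mmp14*, *Mmp25*, *Adam17*, *Timp1* and the other *Mmp12* start. The patterns do not overlap, 8 of the 10 members were matched in the RefSeq promoter table, and *Mmp9* and *Mmp19* were not. A match describes letters in a window and not the binding of a factor.

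Signal was called above background on an array when it exceeded the 95th percentile of 1027 olfactory receptor genes there, a level of 5.56 to 5.78. By this measure, *Mmp25*, *Adam8* and *Adam17* were above background on 10 arrays, *Mmp12* and *Timp2* on 8, *Mmp9* on 7, *Mmp8* and *Mmp14* on 6, *Mmp19* on 4 and *Timp1* on 1. *Mmp14*, which encodes the membrane-type enzyme that activates pro-MMP2, never exceeded 5.99, and it was above the stricter 99th percentile on 0 arrays. The plot of all members by array shows that the cell types separate most in *Mmp12*, *Mmp25*, *Adam8* and *Timp2*. In RNA from whole cultures, fewer cells of a type and less RNA per cell cannot be told apart.

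**Figure D1:**
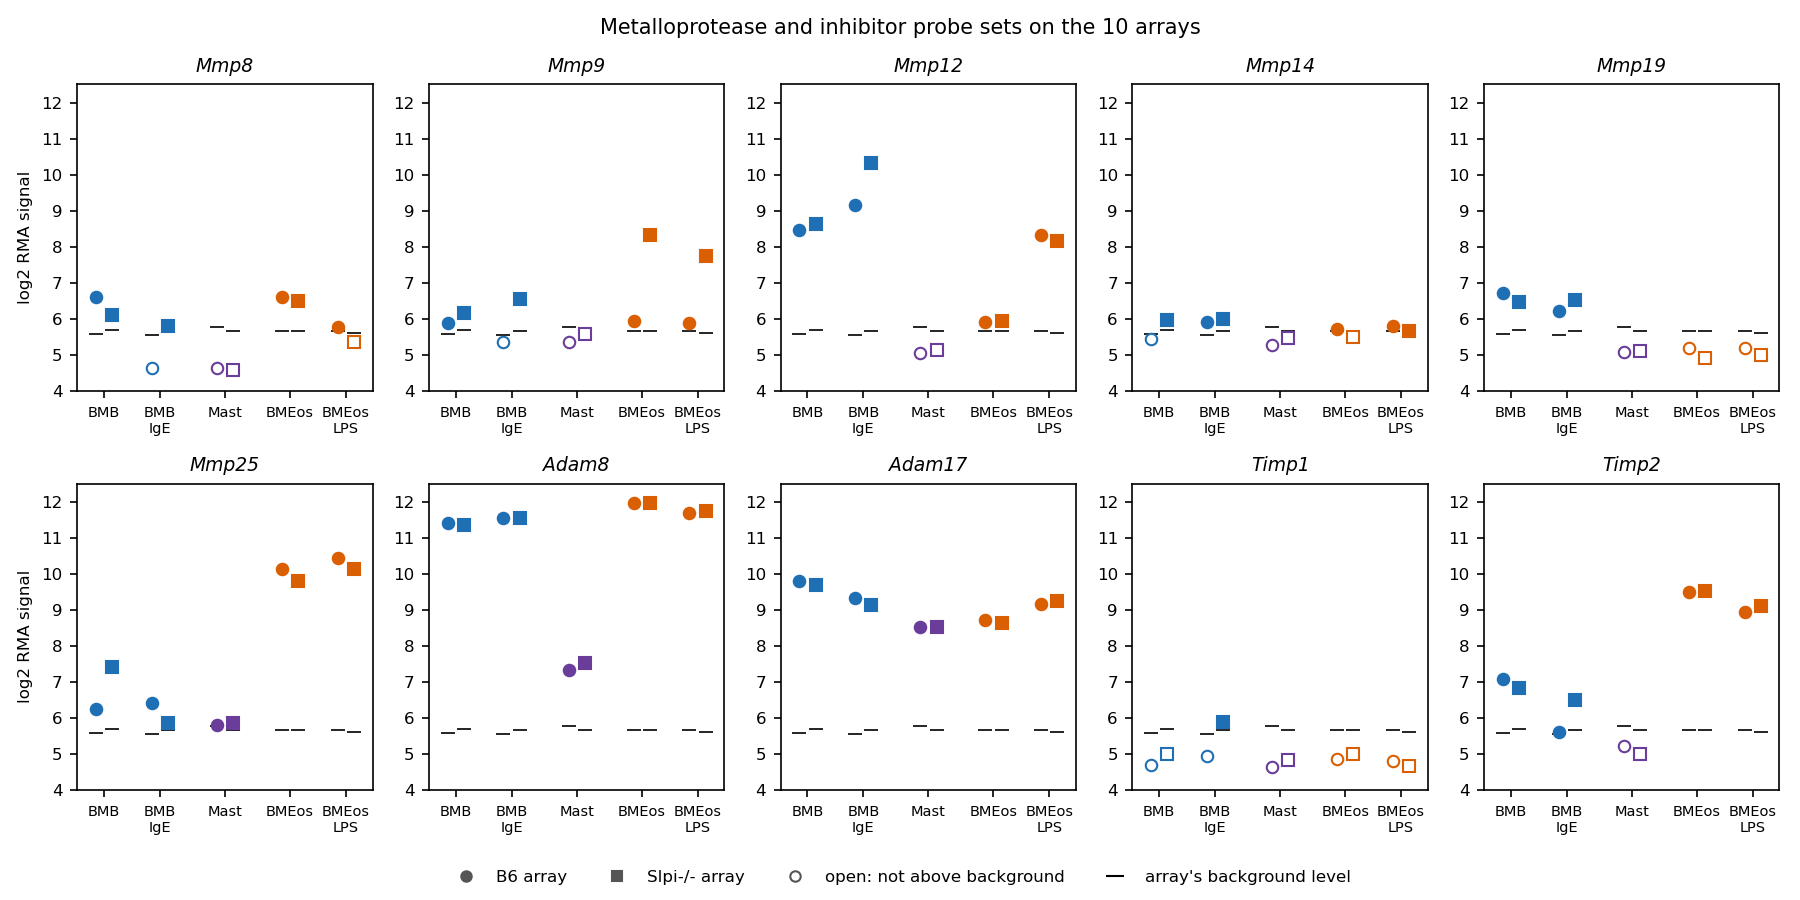
Log2 RMA signal of the 10 genes (y axis, 1 panel each) on the 10 arrays, grouped by cell type and stimulus (x axis), with circles for B6, squares for Slpi-/-, open symbols for signals not above background and short bars for each array's background level. *Mmp12* sat at 8.46 to 10.33 in BMBs and below background in mast cells, while *Mmp25* and *Timp2* sat highest in BMEos.

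The arrays carried the markers of their labels: all 6 basophil markers were above background on each BMB array, and all 6 eosinophil markers on each BMEos array. On the mast cell arrays 5 of 8 mast cell markers were, with *Kit* at 12.78 and 12.80. These counts overlapped, since 5 of the 6 basophil markers were also above background on both mast cell arrays. Likewise, 4 of the 8 mast cell markers were on each BMB array. The basophil markers had a log2 summed signal of 14.69 and 14.58 in unstimulated BMBs and of 13.28 and 13.34 in mast cells. The mast cell markers had 13.31 and 13.27 in those BMBs and 14.62 and 14.73 in mast cells. *Slpi* had signals of 11.33 and 11.42 in B6 BMBs and of 6.35 and 6.55 in Slpi-/- BMBs, and in mast cells it gave no check of the genotype (6.53 and 6.47). The 2 BMEos arrays with LPS differed from all others in sex-linked genes, with *Xist* at 9.72 and 9.66 against 4.90 or less, and *Eif2s3y* at 3.22 and 3.54 against 7.62 or more. LPS and the sex of the donors therefore cannot be told apart. *Timp1* is X-linked, and the other 9 members are autosomal.

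In mast cells, 3 members were above background on both arrays and the other 7 on neither. *Adam8*, which encodes a shedding ADAM of leukocytes also known as CD156a, had a signal of 7.34 in B6 mast cells and of 7.54 in Slpi-/- mast cells. *Adam17* had 8.52 and 8.51, and *Mmp25*, which encodes the leukocyte enzyme MT6-MMP, had 5.81 and 5.85, just above the background of 5.78 and 5.67. Neither *Mmp12* (macrophage elastase) nor *Mmp8* (neutrophil collagenase) nor *Timp2* exceeded background in mast cells. The Slpi-/- minus B6 difference in mast cells was largest for *Mmp9* (0.24) and *Timp2* (-0.24), both below background, and it has no replicate check.

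*Adam8*, *Adam17* and *Mmp25* were measured in both basophils and mast cells and were higher in basophils, while *Mmp8*, *Mmp12*, *Mmp19* and *Timp2* were above background in basophils and not in mast cells. On the 6 unstimulated arrays, 7 of 9 members tested were higher in BMBs than in mast cells and 0 were lower (limma, adjusted p under 0.05), against 18.8% of 12998 genes higher and 17.9% lower. The 9 tested include 6 (*Mmp8*, *Mmp9*, *Mmp12*, *Mmp14*, *Mmp19* and *Timp2*) that were below background on both mast cell arrays and entered the test through BMB or BMEos arrays, so the count and the median do not stand as support for a difference of the members as a whole. That median was 1.49 on the log2 scale, and that of all genes tested was -0.01. *Timp1* was not above background on any of these arrays and was not tested. The B6 and Slpi-/- arrays stood in for repeats in this comparison, which has 2 residual degrees of freedom, so its p-values measure only the spread between these arrays. Where 1 array, or 1 genotype of a stimulated cell type, is left out, an arm holds 1 array, and the fit, with 1 residual degree of freedom, takes its spread from the other arrays and assumes that the lone array varies like them.

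Of the members above background in both, *Adam8* (gene ID 11501, chromosome 7) differed most between BMBs and mast cells. Its log2 signal was 11.40 in B6 and 11.35 in Slpi-/- BMBs, and 7.34 and 7.54 in mast cells, with no overlap between the cell types. The difference was 3.94 (SE 0.11, adjusted p = 1.07e-06), or 15.3-fold. *Mmp12* (gene ID 17381, chromosome 9) had signals of 8.46 and 8.63 in BMBs against 5.05 and 5.15 in mast cells. Since the mast cell values were below background, the fold is a lower bound: *Mmp12* was at least 7.06-fold higher in BMBs (difference 3.45, SE 0.10, adjusted p = 1.23e-06). Both genes had the same order in the B6 and in the Slpi-/- cells.

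*Timp2*, which encodes an inhibitor that also takes part in pro-MMP2 activation, had signals of 7.07 and 6.84 in BMBs and of 5.23 and 5.00 in mast cells, at least 2.34-fold higher in BMBs (adjusted p = 2.94e-05). *Mmp8* had 6.59 and 6.11 against 4.65 and 4.58, at least 1.54-fold higher (adjusted p = 7.02e-05). *Mmp19*, which encodes a secreted enzyme that cuts basement membrane proteins, had 6.70 and 6.48 against 5.09 and 5.12, at least 1.82-fold higher (adjusted p = 8.35e-05). For all 3 the BMB arrays lay above background and the mast cell arrays below it. *Adam17* was measured on both sides, at 9.80 and 9.69 in BMBs and at 8.52 and 8.51 in mast cells, a difference of 1.23 (SE 0.10, adjusted p = 8.99e-05).

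*Mmp25* in BMBs was less certain than the others. The signals were 6.24 in B6 and 7.42 in Slpi-/- BMBs, so that the BMB arrays differed from each other by more than the B6 array differed from mast cells. The difference from mast cells was 1.00 (SE 0.32, adjusted p = 0.0472), and it was 0.33 (adjusted p = 0.168) without the Slpi-/- BMB array and also did not pass without either mast cell array (1.19 and 0.80). *Mmp9* (difference 0.57, SE 0.48, adjusted p = 0.410) and *Mmp14* (0.33, SE 0.18, adjusted p = 0.199) did not pass, although *Mmp14* passed without the B6 BMB array (0.61, adjusted p = 0.0361).

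Eosinophils differed from mast cells in a set that overlapped with that of basophils. Of 9 members tested 6 were higher in BMEos than in mast cells and 0 were lower, against 24.3% and 26.8% of all genes, and the median difference of the members was 1.67 against -0.04 for all genes. The same 6 members were below background in mast cells here, so this count and median are a description too. *Adam8* had signals of 11.97 on both BMEos arrays (difference 4.53, SE 0.11, adjusted p = 3.45e-07). *Timp2* had 9.50 and 9.53, at least 13.8-fold higher than in mast cells (adjusted p = 4.37e-07), and *Mmp25* had 10.13 and 9.81, a difference of 4.13 (SE 0.32, adjusted p = 4.87e-05). *Mmp8* (at least 1.77-fold), *Mmp12* (at least 1.15-fold) and *Mmp9* (at least 2.66-fold) were the other 3. For *Mmp9* the genotypes were far apart: the B6 BMEos array, at 5.95, lay 0.60 above B6 mast cells, and the Slpi-/- BMEos array, at 8.33, lay 2.74 above Slpi-/- mast cells. The *Mmp9* call was lost without the Slpi-/- mast cell array (adjusted p = 0.125), and *Mmp14* passed without the Slpi-/- BMEos array (0.54, adjusted p = 0.0449).

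Set directly against each other, BMEos and BMBs differed in the level of 6 members. In BMEos 3 of 9 were higher (*Mmp25*, *Timp2* and *Adam8*) and 3 were lower (*Mmp12*, *Mmp19* and *Adam17*), against 18.6% and 21.2% of all genes. Of these 6 unstimulated arrays, *Mmp19* was above background only on those of BMBs and entered the test through them. The count of members lower is therefore a description. *Mmp25* was higher in BMEos by 3.14 (SE 0.32, adjusted p = 0.000329) and *Timp2* by 2.56 (SE 0.11, adjusted p = 7.74e-06), with *Adam8* at 0.59 (SE 0.11, adjusted p = 0.00432). On the basophil side, *Mmp12* was 2.62 lower in BMEos (difference -2.62, SE 0.10, adjusted p = 3.98e-06), at 5.91 and 5.95, which is just above background. *Mmp19* was below background on all BMEos arrays and at least 1.90-fold higher in BMBs (adjusted p = 7.78e-05), and *Adam17* differed by -1.07 (SE 0.10, adjusted p = 0.000188). *Mmp9* did not pass (1.10, SE 0.48, adjusted p = 0.116) and did without the B6 BMEos array (2.16, adjusted p = 0.000106). These comparisons share arrays with those against mast cells, so they are not independent.

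**Figure D2:**
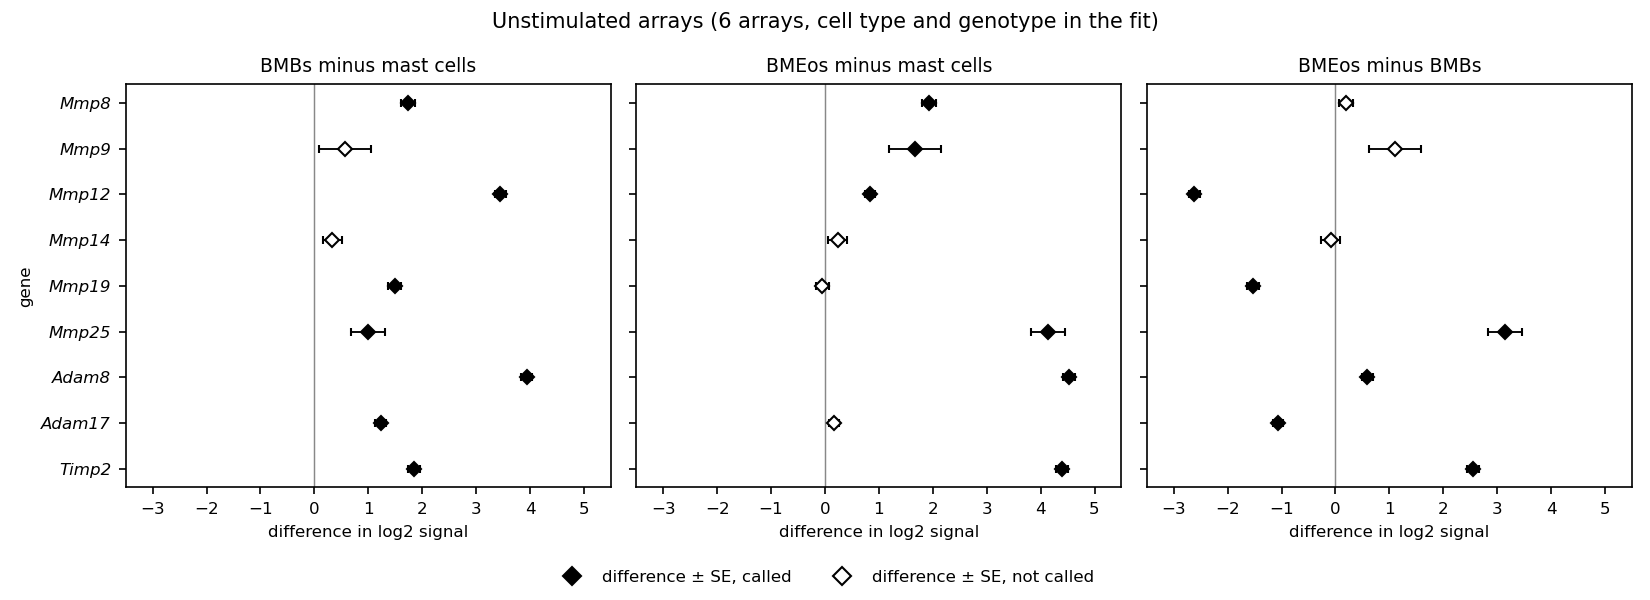
Difference in log2 signal between cell types (x axis, diamonds with SE bars, filled where the adjusted p was under 0.05) for the 9 members tested (y axis) on the 6 unstimulated arrays. *Adam8* lies to the right in both comparisons with mast cells (3.94 and 4.53), and *Mmp12* and *Timp2* lie on opposite sides between BMEos and BMBs (-2.62 and 2.56).

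Markers of other cell types differed along with the cell types. The 12 neutrophil markers other than *Mmp8* had a log2 summed signal of 12.94 and 12.99 in unstimulated BMBs, 12.15 and 12.22 in unstimulated BMEos, and 9.13 in both mast cell arrays. In BMBs 6 or 9 of the 12 were above background, led by *Ly6g* (12.38 and 12.68) and *Ctsg* (10.44 and 9.56), and in BMEos 9 or 10 were. The unstimulated B6 BMB array also held *Prtn3* at 7.25 and *Elane* at 7.14, against 5.57 and 5.47 in the Slpi-/- BMB array. The 11 macrophage markers summed to 11.45 and 11.88 in BMBs, 12.42 and 12.46 in BMEos, and 8.77 and 8.84 in mast cells, mostly through *Adgre1*, which eosinophils also express. *Marco* and *Cd5l* were below background on all 10 arrays. The part of such cells in the *Mmp8* and *Mmp12* differences was not tested.

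With IgE, *Mmp12* rose in BMBs and *Adam17* and *Timp2* fell. Of 10 members tested over the B6 and Slpi-/- pairs, 2 were higher (*Mmp12* and *Timp1*) and 2 were lower (*Timp2* and *Adam17*) with IgE, against 12.2% of 13571 genes higher and 10.6% lower. *Timp1* was above background on 1 array only, that of Slpi-/- BMBs with IgE, and entered the test through it. The count of members higher is therefore a description. The median difference of the members was -0.15, and that of all genes tested was -0.02. The IgE term came from a limma fit of all 10 arrays with 2 residual degrees of freedom, in which the genotypes stood in for repeats.

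The *Mmp12* signal was 8.46 in B6 and 8.63 in Slpi-/- BMBs without IgE, and 9.17 and 10.33 with it. All IgE values exceeded all unstimulated values. The difference was 0.71 in the B6 pair and 1.70 in the Slpi-/- pair, with an IgE term of 1.20 (SE 0.22, adjusted p = 0.0115), or 2.30-fold. This call held under every alternative processing that was run with limma, with adjusted p from 0.00451 to 0.0494. The 11 macrophage markers had a log2 summed signal of 11.88 and 11.45 without IgE and of 12.20 and 12.06 with it, with 5 or 6 above background. *Adgre1* made up most of that sum (11.33 and 10.82, then 11.88 and 11.64), while *Csf1r* was 6.92 and 6.78 without and 5.73 and 6.53 with IgE. The part of such cells in the *Mmp12* rise was not tested.

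*Adam17* fell in both pairs by similar amounts. Its signals were 9.80 and 9.69 without IgE and 9.34 and 9.14 with it, and the groups did not overlap. The IgE term was -0.51 (SE 0.10, adjusted p = 0.0140), from pair differences of -0.46 in B6 and -0.55 in Slpi-/- cells. With the Slpi-/- BMB arrays left out the adjusted p was 0.113, and with the B6 BMB arrays left out it was 0.0542. Each of these sets 1 array against 1 array, with the spread taken from the BMEos arrays.

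*Timp2* fell mainly in the B6 pair, from 7.07 to 5.60, which is just above the background of 5.56. In the Slpi-/- pair it was 6.84 without and 6.49 with IgE. The IgE term was -0.91 (SE 0.24, adjusted p = 0.0389), and without the B6 arrays the difference was -0.35 (adjusted p = 0.151). The B6 array with IgE stood apart in platelet genes too: the 4 megakaryocyte markers had a log2 summed signal of 11.40 on it and of 12.33 to 12.72 on the other BMB arrays, with *Ppbp* at 8.81 against 10.81 or more. *Ccr3* on that array was 4.63, against 6.36 or more on the other BMB arrays. Whether the makeup of that culture has a part in the *Timp2* value was not tested.

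*Timp1*, which encodes an inducible inhibitor that pairs with pro-MMP9, was called with little room. The signals were 4.70 and 5.01 without IgE and 4.95 and 5.88 with it, and only the last is above background. The IgE term was 0.56 (SE 0.16, adjusted p = 0.0499), and the adjusted p was 0.0573 after centring each array and 0.385 without the Slpi-/- arrays. The groups overlapped, since the B6 array with IgE lay below the unstimulated Slpi-/- array.

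The other 6 members did not pass in BMBs. *Mmp8* came nearest, with signals of 6.59 and 6.11 without IgE and of 4.65 and 5.80 with it, an IgE term of -1.13 (SE 0.34, adjusted p = 0.0592). The difference was -1.94 in the B6 pair and -0.31 in the Slpi-/- pair. With the Slpi-/- BMB arrays left out, the term passed (adjusted p = 0.00908), on 1 array against 1 and with the spread of the BMEos arrays. The log2 summed signal of the neutrophil markers went from 12.99 and 12.94 to 11.64 and 11.95, with 4 or 6 of 12 above background with IgE. *Ly6g* made up most of that sum (12.38 and 12.68, then 10.95 and 11.15). In the Slpi-/- pair *Ctsg* (9.56 to 10.21) and *Lcn2* (7.13 to 7.36) rose, while both fell in the B6 pair. The part of neutrophils in the *Mmp8* value was not tested. *Mmp25* differed between the pairs, at 6.24 without and 6.41 with IgE in B6 cells and at 7.42 and 5.86 in Slpi-/- cells, and the term of -0.69 (SE 0.35, adjusted p = 0.223) did not pass. With the B6 BMB arrays left out it did (-1.56, adjusted p = 0.00527), again on 1 array against 1 with the spread of the BMEos arrays. *Mmp9*, *Mmp14*, *Mmp19* and *Adam8* had IgE terms between -0.23 and 0.26. *Adam8* stayed at 11.35 to 11.54 on all 4 BMB arrays.

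LPS in BMEos gave 2 members higher (*Mmp12* and *Adam17*) and 0 lower, against 12.7% and 16.2% of 13571 genes. The median difference of the 10 members was -0.08, and that of all genes was 0.02. *Mmp12* went from 5.91 and 5.95, next to background, to 8.34 and 8.15, and its LPS term was the largest of the members at 2.31 (SE 0.22, adjusted p = 0.000793), or 4.96-fold. The pairs gave 2.42 in B6 and 2.20 in Slpi-/- cells, and the call held under every limma alternative (adjusted p from 0.00016 to 0.00727). With LPS the BMEos signals came close to those of unstimulated BMBs, 8.46 and 8.63.

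*Adam17* rose with LPS, in contrast to its fall with IgE in BMBs. It had signals of 8.72 and 8.64 without and of 9.16 and 9.23 with LPS, an LPS term of 0.51 (SE 0.10, adjusted p = 0.0109). With the Slpi-/- BMEos arrays left out the adjusted p was 0.124, and with the B6 BMEos arrays left out it was 0.0566, each on 1 array against 1 with the spread of the BMB arrays. The IgE and LPS terms of *Adam17* are in different cells and after different times, 12 h and 3 h, and their difference was not tested.

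Among the members that did not pass for LPS, *Mmp8* had signals of 6.61 and 6.49 without and of 5.79 and 5.36 with LPS (term -0.98, SE 0.34, adjusted p = 0.0745), and *Timp2* had 9.50 and 9.53 against 8.93 and 9.11 (-0.49, SE 0.24, adjusted p = 0.169). Neither of these pairs of groups overlapped. *Adam8* was 11.97 on both arrays without LPS and 11.68 and 11.74 with it (-0.26, SE 0.09, adjusted p = 0.0804), and it passed after centring each array (-0.34, adjusted p = 0.0433) and with a variance trend (adjusted p = 0.0293). When the 4 BMEos arrays were fitted alone, *Mmp8* (adjusted p = 0.00426), *Timp2* (0.0186) and *Mmp25* (0.0486, term 0.32) also passed. *Mmp9*, *Mmp14*, *Mmp19* and *Timp1* had LPS terms between -0.31 and 0.12. The log2 summed signal of the macrophage markers went from 12.42 and 12.46 to 12.96 and 12.92 with LPS, with 6 of 11 in place of 4 above background. *Adgre1*, which eosinophils also express, made up most of that sum (12.09 on both arrays, then 12.55 and 12.53). *Csf1r* was 9.43 and 9.62 without and 10.44 and 10.27 with LPS. *Cd14*, which LPS is known to induce, was 5.00 and 5.45 and then 6.73 and 6.63. *Mrc1*, below background on all 4 BMEos arrays, went the other way, from 5.11 and 5.03 to 4.59 and 4.70. The part of macrophages, or of the sex of the donors, in the *Mmp12* rise was not tested.

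**Figure D3:**
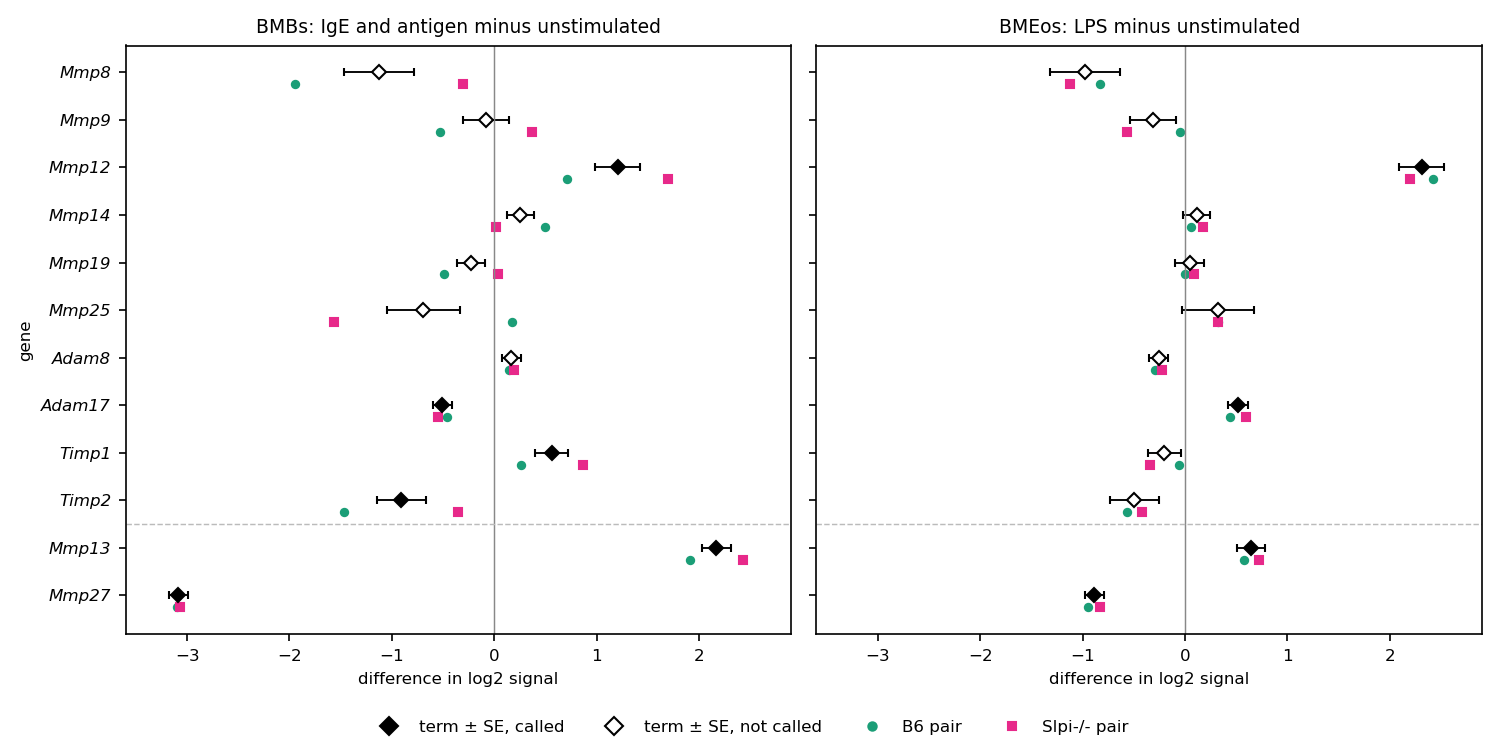
Difference in log2 signal with stimulus (x axis) for the 10 members and, under the dashed line, *Mmp13* and *Mmp27* (y axis), in BMBs given IgE (left) and BMEos given LPS (right), as the fitted term with its SE (diamonds, filled where adjusted p was under 0.05) and as the B6 and Slpi-/- pairs. *Mmp12* lies to the right of 0 in both panels (1.20 and 2.31), *Mmp27* to the left (-3.08 and -0.89), and *Adam17* on opposite sides (-0.51 and 0.51).

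The largest IgE differences of the MMP list were in *Mmp13* and *Mmp27*, which lie in the same row as *Mmp12*. The list holds 22 measured MMP genes, members included, of which 14 were tested: 2 were higher and 1 was lower with IgE, and 2 were higher and 1 was lower with LPS, with medians of -0.07 and 0.13. Of all genes, 12.2% were higher and 10.6% lower with IgE, and 12.7% and 16.2% with LPS, and nothing is read from these counts about the list. *Mmp13*, which encodes collagenase-3, had signals of 5.89 and 6.03 in unstimulated BMBs and of 7.80 and 8.46 with IgE, a term of 2.17 (SE 0.14, adjusted p = 0.000749). In BMEos it was not above background without LPS and had 6.11 and 6.39 with it (0.65, SE 0.14, at least 1.50-fold, adjusted p = 0.0170), a call lost on leaving out either genotype.

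*Mmp27*, which encodes a little-studied MMP, moved the other way. It had signals of 8.15 and 8.27 in unstimulated BMBs and of 5.05 and 5.20 with IgE, both below background, and was therefore at least 6.09-fold lower with IgE (term -3.08, SE 0.09, adjusted p = 0.000126). In BMEos it fell from 8.70 and 8.61 to 7.76 and 7.77 with LPS (-0.89, SE 0.09, adjusted p = 0.00122). Its level was highest in mast cells, at 9.34 and 9.65, and of the 12 MMP genes tested it was the 1 that was lower in BMBs than in mast cells (difference -1.28, SE 0.12, adjusted p = 0.000237). *Mmp12* and *Mmp13* were below background on the mast cell arrays, where *Mmp27* had its highest signals. The 6 other genes of the row apart from *Mmp8* were below background on all 10 arrays.

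**Figure D4:**
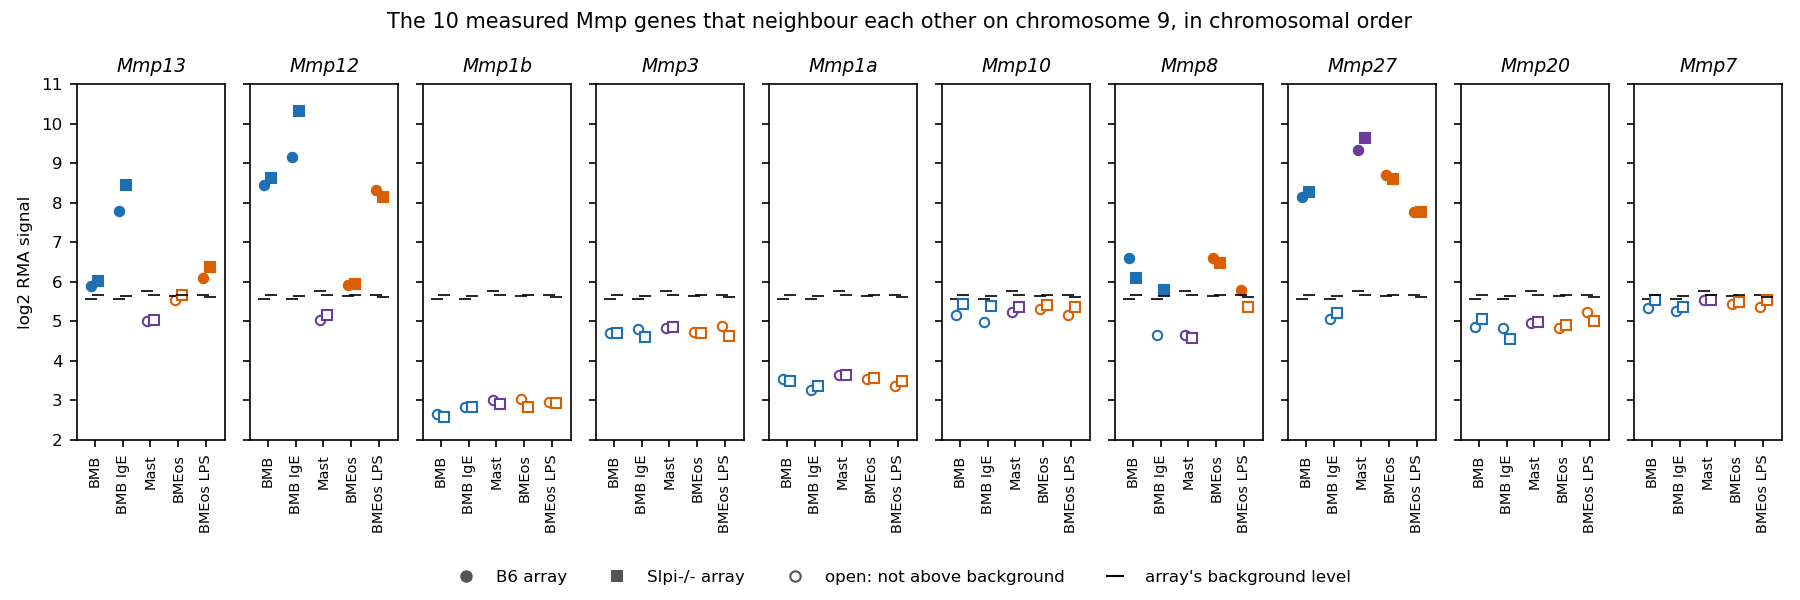
Log2 RMA signal (y axis) of the 10 measured Mmp genes that neighbour each other on chromosome 9, in chromosomal order from left to right, on the 10 arrays (x axis, symbols as in the plot of all members). *Mmp13* and *Mmp12* go up and *Mmp27* goes down from BMB to BMB IgE, while *Mmp1b*, *Mmp3*, *Mmp1a*, *Mmp10*, *Mmp20* and *Mmp7* stay below the background bars.

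Other inhibitors were called between cell types and not with the stimuli. Of 6 measured MMP inhibitor genes, *Timp1* and *Timp2* were the only ones called with IgE and 0 of 5 tested were called with LPS. *Timp3*, whose product stays bound to the matrix and inhibits ADAM17, was below background in unstimulated BMEos and at least 2.71-fold higher in mast cells (adjusted p = 0.000101) and at least 2.81-fold higher in BMBs (adjusted p = 0.000159). With IgE the *Timp3* pairs went opposite ways, from 7.14 to 6.50 in B6 BMBs and from 7.17 to 8.54 in Slpi-/- BMBs. With LPS *Timp3* went from 5.42 and 5.30, below background, to 6.19 and 5.67, above it, and was not called. *Timp4* was above background only in mast cells, at 6.33 and 6.27, and at least 1.59-fold higher there than in BMBs (adjusted p = 0.000207). *Timp2* had its highest signals in unstimulated BMEos, where *Timp3* and *Timp4* were below background.

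Of the 14 measured ADAM genes 9 were tested. On the 6 unstimulated arrays *Adam11* and *Adam23* were above background only in Slpi-/- BMBs and entered the test through that array. The cell type count and median that follow are therefore a description. Between BMBs and mast cells 6 were higher in BMBs and 0 were lower, with a median difference of 1.01, against 18.8% and 17.9% of all genes and a median of -0.01. Besides *Adam8* and *Adam17* these were *Adam15* (difference 1.59, SE 0.11, adjusted p = 5.79e-05), *Adam19* (1.17), *Adam10* (1.01), which encodes the other main sheddase, and *Adam23*, which was above background only on the Slpi-/- BMB array without IgE (at least 1.03-fold, differences of 0.54 in B6 and 1.46 in Slpi-/- cells). *Adam19* had its highest signals in BMEos, 10.17 and 10.08, against 6.07 and 6.22 in mast cells (difference 3.98, SE 0.13, adjusted p = 1.30e-06). With IgE *Adam15* rose (0.43, adjusted p = 0.0429) and *Adam19* fell (-0.55, adjusted p = 0.0154), and with LPS *Adam9* rose (0.63, adjusted p = 0.00582) while *Adam19* (-0.72, adjusted p = 0.00479) and *Adam10* (-0.41, adjusted p = 0.0268) fell. *Adam10* thus moved opposite to *Adam17* with LPS. Among 18 measured ADAMTS genes, which encode secreted relatives, *Adamts10* had the largest stimulus differences and fell with IgE (-0.68, adjusted p = 0.00805) and with LPS (-1.33, adjusted p = 0.000509).

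The proteins that let ADAM17 and ADAM10 mature or reach the surface are encoded by 9 genes of the list of partners. Between BMBs and mast cells 4 of 8 tested were higher and 1 was lower, with IgE 1 of 9 was higher and 0 were lower, and with LPS 2 were higher and 2 were lower. The shares of all genes were 18.8% and 17.9% between these cell types, 12.2% and 10.6% with IgE, and 12.7% and 16.2% with LPS, and nothing is read from the stimulus counts about the list. *Rhbdf2* encodes iRhom2, which carries ADAM17 to the surface of leukocytes, and had signals of 9.55 and 9.40 in BMBs, 8.71 in both BMEos arrays and 6.71 and 6.69 in mast cells. Mast cells were lower than BMBs by 2.77 (difference 2.77, SE 0.10, adjusted p = 3.06e-06). *Rhbdf2* rose with both stimuli, by 0.38 with IgE (SE 0.10, adjusted p = 0.0372) and by 0.35 with LPS (SE 0.10, adjusted p = 0.0409). With IgE it thus moved opposite to *Adam17*. Both *Rhbdf2* calls lie near the threshold and were not followed under alternative processing. *Tspan14*, which encodes a tetraspanin partner of ADAM10, fell with LPS (-0.55, adjusted p = 0.0167), as did *Frmd8* (-0.46, adjusted p = 0.0136), whose product binds iRhoms.

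*Tnf*, the best known of the genes whose membrane products ADAM17 or ADAM10 can release, rose with both stimuli. Of the list, with IgE 3 of 21 tested were higher and 5 were lower (median -0.25), and with LPS 8 were higher and 1 was lower (median 0.26), against 12.2% and 10.6% of all genes with IgE and 12.7% and 16.2% with LPS. *Tnf* had signals of 7.31 and 6.85 without and of 9.15 and 9.18 with IgE (term 2.09, SE 0.14, adjusted p = 0.000780). In BMEos it went from 7.15 and 6.85 to 11.16 and 11.05 with LPS (4.11, SE 0.14, adjusted p = 1.90e-05). In BMBs the *Tnf* rise with IgE thus stood beside a lower *Adam17* signal, and in BMEos the rise with LPS stood beside a higher one. The growth factor genes *Tgfa* (1.58, adjusted p = 0.00103) and *Hbegf* (1.24, adjusted p = 0.00225) also rose with IgE, and *Notch2* fell (-0.69, adjusted p = 0.00425). With LPS, *Icam1* (2.70, adjusted p = 4.24e-05) and *Il15ra* (1.36, adjusted p = 0.00388) rose, and *Il1r2*, which encodes the decoy receptor for IL-1, fell (-2.02, adjusted p = 0.000103). Between cell types, *Kit* was lower in BMBs than in mast cells (6.89 and 6.79 against 12.78 and 12.80), and BMBs had been sorted as c-kit- cells.

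Proenzyme activation involves the plasminogen system and furin, and 7 of the 9 measured genes of that list were tested for the stimuli. With IgE, *Plaur*, which encodes the urokinase receptor, rose (1.16, SE 0.12, adjusted p = 0.00181), *Furin* rose (0.48, adjusted p = 0.0392), and *Serpinb2*, which encodes a plasminogen activator inhibitor, fell from 10.52 and 10.44 to 8.76 and 8.41 (-1.89, SE 0.11, adjusted p = 0.000635). With LPS the directions of 2 of these turned, as *Plaur* fell (-0.52, adjusted p = 0.0190) and *Serpinb2* rose (0.43, adjusted p = 0.0296). *Plau*, the urokinase gene, was highest in mast cells, at 9.71 and 9.59, and below background on all 4 BMEos arrays. Mast cells, in which most of the MMP members were below background, thus had *Plau* at least 15.9-fold above BMEos (adjusted p = 1.39e-05) and 3.72-fold above BMBs (adjusted p = 0.00147). The unstimulated BMB arrays were apart from each other in *Plau*, at 8.27 in B6 and 7.25 in Slpi-/- cells.

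Of 18 genes of matrix and basement membrane substrates tested, 2 rose and 1 fell with IgE, and 2 rose and 1 fell with LPS. The shares of all genes were 12.2% and 10.6% with IgE and 12.7% and 16.2% with LPS, and nothing is read from these counts about the list. *Bsg*, which encodes basigin, an inducer of MMPs also known as EMMPRIN, rose with IgE (0.65, SE 0.10, adjusted p = 0.00672) and fell with LPS (-0.61, SE 0.10, adjusted p = 0.00670). *Fn1*, the fibronectin gene, fell with IgE (-0.70, adjusted p = 0.0160). *Lama5*, which encodes a laminin chain, was 11.45 and 11.14 in BMBs against 7.62 and 7.53 in mast cells (difference 3.72, SE 0.17, adjusted p = 9.18e-06).

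The loss of SLPI gave no member past the threshold. In BMBs, in BMEos and in the difference between them 0 of 10 members passed, and *Slpi* itself was the 1 gene of 13571 that did in each (0.00737% of genes in each). Over all 5 cell and stimulus settings 0 of 10 members and 0.0% of genes passed. That fit did not call *Slpi* either, so its 0 of 10 cannot be read as a lack of difference. The methods' t-test called 0 genes after adjustment in BMBs, in BMEos and over all settings. Within BMBs or BMEos it has 1 degree of freedom and did not call *Slpi* either, so it says nothing of the members there. At an unadjusted p under 0.05 in limma there were 3 members in BMBs and 1 in BMEos. There were 4 in the difference between them and 1 over all settings. The shares of all 13571 genes at that level were 6.76% in BMBs, 5.78% in BMEos, 6.09% in the difference and 5.32% over all settings. Nothing is read from these counts about the members. The 3 in BMBs were *Timp1* (difference 0.62, SE 0.16, unadjusted p = 0.00727), *Mmp9* (0.73, SE 0.22, unadjusted p = 0.0153) and *Mmp12* (0.67, SE 0.22, unadjusted p = 0.0203), each higher in Slpi-/- cells, with adjusted p of 0.501, 0.586 and 0.628 in limma. All 3 were higher in Slpi-/- than in B6 BMBs with and without IgE. *Timp1* was above background on 1 array only, that of Slpi-/- BMBs with IgE, and entered the test through it. Its genotype difference is therefore a description. For *Mmp12* the 4 BMB arrays gave a genotype difference of 0.17 without IgE and of 1.16 with it. In BMEos the 1 member was *Mmp9* (2.12, SE 0.22, adjusted p = 0.133).

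The patterns of 6 members over the 10 arrays spanned at least 2 on the log2 scale, and the genes most like them by Pearson's r are given as a description, since the arrays share cell types and stimuli. *Mmp12* was most like *Cd82* (r = 0.983), *Met* (0.976) and *B4galt5* (0.969). *Timp2* was most like *Tgfbi* (0.996), *Msrb1* (0.991) and *Fis1* (0.990), and *Adam8* was most like *Septin1* (0.996), *Lgals3* (0.994) and *Atp8b4* (0.992). *Mmp25* was most like *Hps3* (0.989), *Fam169b* (0.988) and *Ikzf3* (0.987). The likeness was lower for *Mmp8*, led by *Zbtb24* (0.958), and for *Mmp9*, led by *Habp2* (0.891), and the signal of these partners spanned only 0.43 and 0.33. Among the members themselves, *Mmp25* and *Timp2* were the most alike (r = 0.938) and *Mmp19* and *Mmp25* the least (-0.55), while *Mmp12* and *Adam17* had r = 0.791.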

How the data were processed

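Each of the 10 conditions was measured on 1 array. The authors normalized the arrays with the RMA algorithm (Bioconductor, affy), and the deposited log2 values were analysed as they stand. Their version, and a genome build for the array, are not given in the sources used here. RMA shares probe effects and a distribution across arrays, so it compresses small signals and leaves no absolute amount. Of 34760 probe sets, 21640 carry 1 gene symbol in the platform annotation, 1321 several and 11799 none, and only the first kind was named. The probe set with the highest mean stood for a gene. No coordinates of probe sets are given, and promoter sequences came from RefSeq on GRCm38.p6.

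Differences were tested with limma 3.58.1 in R 4.3.3 (lmFit, eBayes, two-sided, Benjamini-Hochberg over all genes tested, threshold 0.05). The fit of 10 arrays had 1 mean per cell type and genotype plus terms for IgE and for LPS, over 13571 genes above background on at least 1 array. Cell types were compared on the 6 unstimulated arrays with genotype as a term (12998 genes), and the genotype over 5 settings with each setting as a block. The genotypes are not replicates from separate cultures of 1 condition, so p-values measure only the spread between these arrays. The number of arrays limits the precision. "At least" folds set the higher group's mean against the mean of, per array, the higher of the background level and the signal. Other steps used Python 3.11.15 (pandas 2.3.3, numpy 2.4.6, matplotlib 3.10.9).

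The members and gene lists were chosen with earlier results of these data known. The text names all members, up to 4 genes of each other list with the largest difference among those called in a comparison, the 3 genes most like a member whose signal spans at least 2, and *Slpi*, *Xist*, *Eif2s3y* and cell markers as checks. The alternatives were centring, quantile normalization, averaged probe sets, no filter on signal, a background at the 99th percentile, a variance trend, the arrays of 1 cell type alone, all 10 arrays for the cell types, the methods' paired t-test, and leaving out arrays. Outside the members, the calls of single genes were followed over these alternatives only for *Mmp13* and *Mmp27*.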

Additional observations from a re-analysis of the deposited data

How the results depend on the processing

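No difference called in the main fit or in an alternative had the opposite sign in the other. Over the settings, with the methods' t-test included, 825 of the values of the members kept their side of the threshold, 24 lost a call and 13 gained one. Each member call for IgE or LPS is among those lost under that t-test, which called 0 genes. The 825 include the genotype values, of which the main fit called none for a member. The sign was not checked for values called neither in the main fit nor in the alternative, and it could change among them. The *Mmp25* IgE term, for example, was -0.69 in the main fit and 0.18 in the B6 pair. Of the counts of members called, the IgE count of 4 became 2 with no filter on signal, where *Timp1* and *Timp2* were lost, and 0 with the methods' t-test. The LPS count of 2 became 5 with BMEos alone, 1 without either genotype, where *Mmp12* was the 1 called, and 0 with the methods' t-test. The genotype count in BMEos went from 0 to 1 with a variance trend (*Mmp9*, adjusted p = 0.0370). The methods' t-test on 2 pairs has 1 degree of freedom and called 0 genes of the whole array for either stimulus, so it says nothing of stability. Leaving out a whole genotype in the cell type comparisons was not run, because no residual degrees of freedom are left, and single arrays were left out in its place, an alternative chosen after seeing the data. The labels number no replicates, and the arrays were paired by genotype or by setting, both in the limma fits and in the methods' t-test. *Mmp14*, *Mmp19* and *Timp1* lay near or below background on most arrays, which limits what can be read for those genes.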
